A study of Homo sapiens with 8 samples.

Results

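The 9 genes described here encode enzymes of the pentose phosphate pathway and further enzymes that make NADPH: PGLS, PGD, RPIA, RPE, TKT, TALDO1, ME1, IDH1 and IDH2. They were chosen by symbol, from what their products do, with earlier results of these data known. They are 9 of the 60291 gene identifiers in the count tables. RNA was sequenced from A549 cells, an established human lung adenocarcinoma line known to lack working KEAP1, the adaptor that otherwise sends NRF2 for degradation, and so to accumulate NRF2. The experiment asked which transcripts respond when NFE2L2, the gene for NRF2, is silenced. In each transfection 250000 cells received 5 nmol of siRNA with Lipofectamine RNAiMAX, and RNA was taken after 48 h. The NFE2L2 siRNA group held 3 libraries, one for each of 3 different duplexes, so that duplex and transfection cannot be told apart within it. The control siRNA group held 4 libraries, from 2 control duplexes with 2 transfections each (control libraries 1 and 2 from duplex 1, 3 and 4 from duplex 2). A single mock library received the transfection reagent without siRNA. All groups came from the same line, which the study did not authenticate.

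NADPH is the reducing agent that cells spend on fatty acid and nucleotide synthesis and on keeping glutathione and thioredoxin reduced. The oxidative branch of the pentose phosphate pathway makes NADPH while turning glucose 6-phosphate into a pentose phosphate, and the non-oxidative branch moves carbon between pentose phosphates and the intermediates of glycolysis. Malic enzyme and the NADP-dependent isocitrate dehydrogenases make NADPH outside the pathway. NRF2 is a transcription factor that binds antioxidant response elements near genes of antioxidant defence and detoxification.

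Of the 9 enzymes, 4 were reduced with NFE2L2 siRNA: PGD in the oxidative branch, TKT and TALDO1 in the non-oxidative branch, and the cytosolic malic enzyme ME1. Their mean levels were between 2.31-fold and 2.90-fold lower than with control siRNA. None of the 9 was increased, and PGLS, RPIA, RPE, IDH1 and IDH2 did not pass the test (edgeR quasi-likelihood test, adjusted over 17811 tested genes, threshold 0.01). Among all tested genes 1.36% were called reduced and 1.39% increased, 2.76% in all. The median log2 fold change of the 9 was -0.58, against 0.0082 over all tested genes. By duplex their median was -1.08, -0.28 and -1.23 for NFE2L2 duplexes 1, 2 and 3. The median over the 9 thus depended on single libraries, at -0.37, -1.36 and -0.37 without duplex 1, 2 and 3. These are bulk libraries, in which fewer cells and less RNA per cell cannot be told apart.

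**Figure D1:**
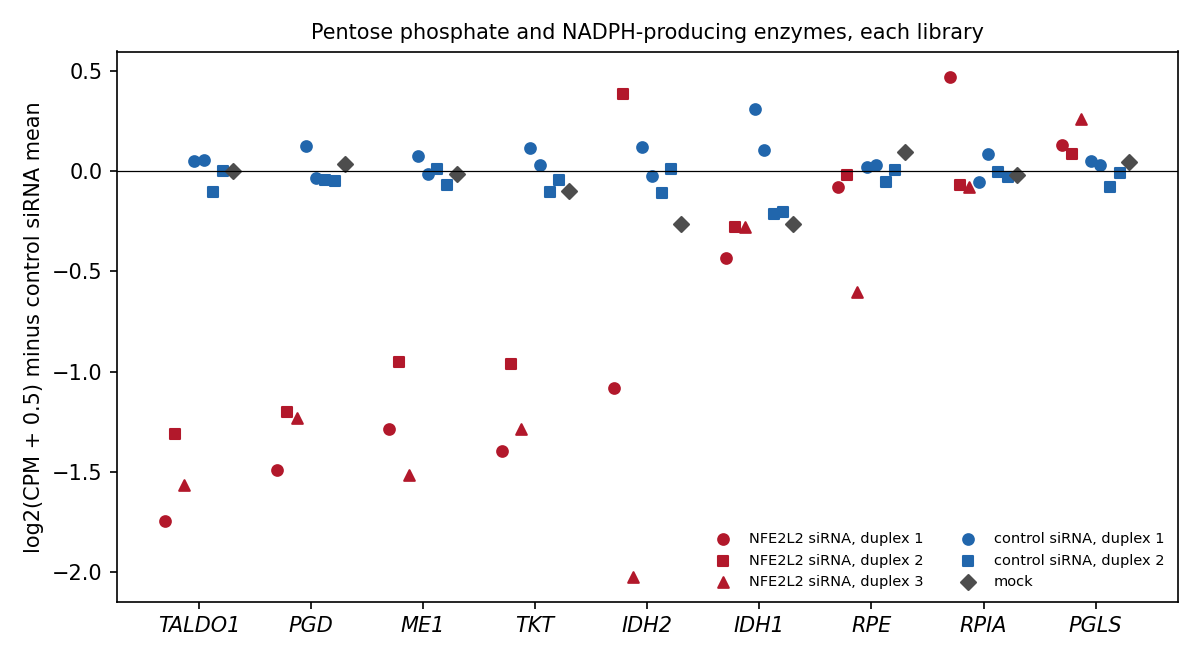
Level of each of the 9 enzymes in each library, as log2(CPM + 0.5) minus the mean of the 4 control siRNA libraries (vertical axis); red points are NFE2L2 siRNA, blue points control siRNA and grey diamonds mock, with marker shape giving the duplex. For TALDO1, PGD, ME1 and TKT all 3 red points lie at -0.95 or lower, while IDH2 spreads from -2.02 to 0.39 and RPIA, RPE and IDH1 each have red points near the control points.

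The silenced gene was read first. NFE2L2 was at 33.0, 52.0 and 29.7 CPM (the reads of a gene scaled to the library's total of gene reads, after TMM scaling between libraries) with NFE2L2 duplexes 1, 2 and 3, at 107, 110.3, 113 and 117 in control libraries 1 to 4, and at 110.4 in the mock library. All 3 silenced libraries lay below all controls, and duplex 2 left the most NFE2L2 RNA. The log2 fold change was -1.55 (SE 0.178, adjusted p = 0.000994, edgeR). Gene counts were between 35525141 and 41645410 per library. The 5 epithelial markers summed to 7337 to 11695 CPM in the silenced libraries and 7634 to 8383 in the controls, none of them called. KRT8 and KRT18, the most abundant, had log2 fold changes of 0.25 and 0.14. EPCAM, KRT19 and CDH1 had 0.80, 0.88 and 0.74 (adjusted p = 0.0624, 0.0200 and 0.0455, edgeR). All 4 alveolar type 2 markers (SFTPA1, SFTPB, SFTPC and NKX2-1) were below 1 CPM in every library. Summed levels of 3 immune markers were at most 0.249 CPM. The 2 endothelial markers found summed to 0.615 to 0.987 CPM in the silenced libraries and 0.215 to 0.305 in the controls, with CDH5 called increased. Those of 3 fibroblast markers summed to 11.3 to 16.9 and 4.93 to 6.29 CPM. COL1A1 was called increased, and DCN was at no more than 1 read per library. COL3A1 was higher but not called (log2 fold change 1.00, adjusted p = 0.0359, edgeR). The part of these markers in the results was not tested.

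Promoter sequence was examined because NRF2 is known to bind the antioxidant response element, whose core is written TGACNNNGC. RefSeq promoter windows of 300 bases (GRCh38.p14, from 250 bases before to 50 after a start site) were found for all 9 genes, with 2 for IDH1. The core was searched on both strands. It lay in windows of PGD, RPE, ME1 (2 matches) and IDH1, thus in 2 of the 4 reduced genes and 2 of the 5 others. Over all RefSeq windows 13.3% held it, and 16.1% of genes had it in at least 1 window. The matches follow with 10 bases on each side, read 5′ to 3′ along the gene's strand, with the core in capitals.
PGD, chr1:10398853-10398881, plus strand, core on the opposite strand: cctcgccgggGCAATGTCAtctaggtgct
ME1, chr6:83431170-83431198, minus strand: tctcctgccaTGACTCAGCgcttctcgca
ME1, chr6:83431022-83431050, minus strand, core on the opposite strand: gctgcagtcaGCACCGTCAccccagcagc
RPE, chr2:210002477-210002505, plus strand: ggcggacggcTGACAGCGCcccaccccag
IDH1, chr2:208255196-208255224, minus strand: cccctctcgcTGACTCCGCccatcccacg
The PGD core began 201 bases before the start site and the RPE core 151 bases before it. In ME1 the matches began 137 bases before and 12 bases after the start, the latter inside the transcript, and in IDH1 143 bases before it. TKT and TALDO1, both reduced, had no match in these windows, nor had PGLS, RPIA and IDH2. The IDH2 window did not end in an annotated transcript, so the main start site of IDH2 may not have been searched. A match describes the letters of the window and was not tested for binding.

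The oxidative branch was represented by a lactonase and a dehydrogenase, which behaved differently. PGD (chromosome 1, 10458649 to 10480568 on GRCh37, plus strand) encodes 6-phosphogluconate dehydrogenase, which makes NADPH and ribulose 5-phosphate. It was at 339, 414 and 405 CPM with NFE2L2 duplexes 1 to 3 and at 1039, 931, 924 and 923 CPM in control libraries 1 to 4, with 979 CPM in the mock library. Every silenced library was thus less than the lowest control by a wide margin, and the 4 controls lay close together apart from control library 1. Mean levels were 386 ± 40.9 (SD, n = 3) and 954 ± 56.9 CPM (SD, n = 4), a log2 fold change of -1.31 (SE 0.103, 95% interval -1.54 to -1.08, adjusted p = 0.000102, edgeR). The gene rested on 12118 to 39081 reads per library.

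PGLS (chromosome 19, 17622445 to 17632097, plus strand) encodes the lactonase that acts just before PGD. Its level was 33.7, 32.7 and 36.95 CPM with NFE2L2 siRNA and 31.9, 31.5, 29.1 and 30.6 CPM with control siRNA, and 31.7 CPM in the mock library. The 3 silenced libraries lay just above the controls, a pattern that 11.9% of tested genes showed. The log2 difference of 0.16 (SE 0.0931, 95% interval -0.05 to 0.37) did not pass the test (adjusted p = 0.312, edgeR).

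In the non-oxidative branch the carbon-transfer enzymes were reduced and the isomerase and epimerase did not pass the test. TALDO1 (chromosome 11, 747415 to 765012, plus strand) encodes transaldolase, which moves a 3-carbon unit between sugar phosphates. It was at 83.3, 113 and 94.3 CPM with NFE2L2 siRNA, at 290.1, 292, 261 and 280.3 CPM with control siRNA and at 281 CPM in the mock library. No silenced library came near the controls, and duplex 2 was the least reduced. TALDO1 had the lowest log2 fold change of the 9, -1.54 (SE 0.116, 95% interval -1.80 to -1.28, adjusted p = 7.38e-05, edgeR), or 2.90-fold lower.

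TKT (chromosome 3, 53258728 to 53290068, minus strand) encodes transketolase, the thiamine-dependent enzyme that moves 2-carbon units. It had the highest CPM of the 9, at 699, 944 and 753 with NFE2L2 siRNA and 1993.5, 1882, 1709.7 and 1784 with control siRNA, and 1717 in the mock library. The groups did not overlap and duplex 2 again left the most RNA. The log2 fold change was -1.21 (SE 0.121, 95% interval -1.48 to -0.93, adjusted p = 0.000414, edgeR), from 1842 ± 123 CPM (SD, n = 4) to 799 ± 129 CPM (SD, n = 3). Against control duplex 2 alone the adjusted p was 0.0184, which misses the threshold.

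The ratio of TKT to TALDO1 within a library was compared because both transfer carbon units. Its log2 value was 3.04 ± 0.0416 in the silenced libraries (SD, n = 3) and 2.71 ± 0.0481 in the controls (SD, n = 4), a difference of 0.33, and 2.61 in the mock library. All 3 silenced libraries lay above all 4 controls, and the exact two-sided permutation test over the 35 divisions of the libraries gave p = 0.0571, the smallest it can give (0.0857 after Benjamini-Hochberg adjustment over 3 ratios).

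RPIA (chromosome 2, 88991191 to 89050446, plus strand) encodes ribose 5-phosphate isomerase, which makes ribose 5-phosphate, a precursor of nucleotides. By group mean it was the least abundant of the 9 per transcript length. RPIA was at 20.2, 13.7 and 13.6 CPM with NFE2L2 siRNA, 13.9, 15.3, 14.4 and 14.1 CPM with control siRNA and 14.2 CPM in the mock library. Duplex 1 was higher than all controls, while duplexes 2 and 3 were just below them. Its log2 fold change of 0.13 did not pass the test (SE 0.150, 95% interval -0.20 to 0.47, adjusted p = 0.626, edgeR) and became -0.078 without duplex 1.

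RPE (chromosome 2, 210867289 to 210886984, plus strand) encodes the epimerase that makes xylulose 5-phosphate, a substrate of transketolase. Levels were 117, 122 and 81.1 CPM with NFE2L2 siRNA, 125, 126, 119 and 124 CPM with control siRNA and 132 CPM in the mock library. Duplexes 1 and 2 lay near the controls and only duplex 3 was well below. For RPE the log2 fold change was -0.21 (SE 0.134, 95% interval -0.51 to 0.09, adjusted p = 0.359, edgeR). Processed pseudogenes of RPE, PGD and RPIA held at most 7 reads in any library, so few reads were assigned to these copies. KANSL1L overlaps RPE on the opposite strand, which the stranded counting separates.

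**Figure D2:**
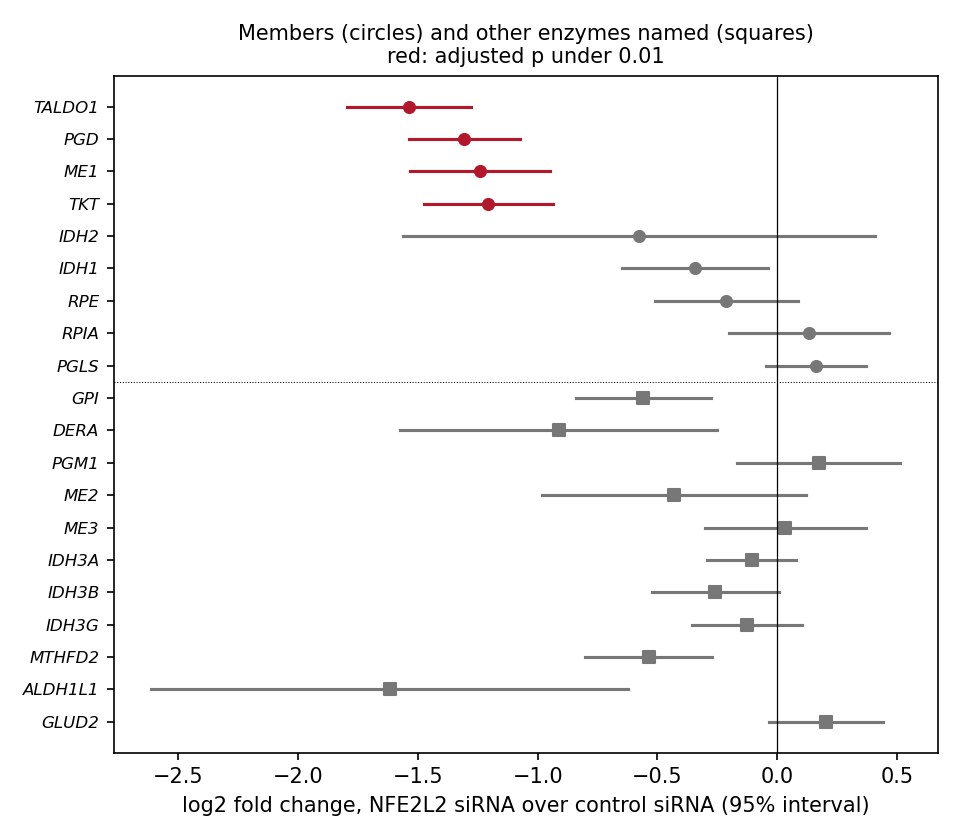
Log2 fold change of NFE2L2 siRNA over control siRNA (horizontal axis) with its 95% interval from the edgeR fit, for the 9 enzymes (circles) and for related enzymes named in the text (squares); red marks an adjusted p under 0.01. TALDO1, PGD, ME1 and TKT stand at -1.54 to -1.21 with intervals that end below -0.9, whereas none of the related enzymes is red.

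Outside the pathway, ME1 was reduced and both isocitrate dehydrogenases failed the test. ME1 (chromosome 6, 83920121 to 84140770, minus strand) encodes the cytosolic malic enzyme, which makes NADPH while turning malate into pyruvate. It was at 74.4, 93.9 and 63.4 CPM with NFE2L2 siRNA, at 192, 181, 183 and 174 CPM with control siRNA and at 180.6 CPM in the mock library. The groups were widely separated and the controls, from both duplexes, were tight. The log2 fold change was -1.24 (SE 0.131, 95% interval -1.53 to -0.95, adjusted p = 0.000548, edgeR), or 2.36-fold lower. With 1 control duplex left out at a time the size was kept (-1.28 and -1.21) but the adjusted p rose to 0.0145 and 0.0223.

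The mitochondrial malic enzymes did not pass the test. ME2, which uses NAD, was at 83.7, 73.4 and 34.2 CPM in the silenced libraries and at 79.1 to 92.8 CPM in the controls, a log2 fold change of -0.43 (adjusted p = 0.311, edgeR). ME3, which uses NADP, had 0.03 (adjusted p = 0.917), a sign that turned in some settings (-0.066 against control duplex 2 alone). The log2 ratio of ME1 to ME2 was -0.17, 0.36 and 0.89 with NFE2L2 siRNA and between 0.96 and 1.21 with control siRNA. The silenced libraries were lower in every case, with a mean difference of -0.73 (exact permutation p = 0.0571, adjusted 0.0857), and the highest of the 3 ratios came from duplex 3, in which ME2 was lowest.

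IDH1 (chromosome 2, 209100953 to 209130798, minus strand) encodes the cytosolic NADP-dependent isocitrate dehydrogenase. It was at 413, 460.3 and 460.3 CPM with NFE2L2 siRNA and at 691, 600.3, 480.4 and 485 CPM with control siRNA, and at 465 CPM in the mock library. All silenced libraries were below all controls, as for 11.4% of tested genes, but those of control duplex 2 exceeded them only slightly, and the mock library lay between the highest silenced library and the lowest control. The log2 difference was -0.34 (SE 0.136, 95% interval -0.65 to -0.04, adjusted p = 0.152, edgeR). It was -0.55 against control duplex 1 alone (adjusted p = 0.0704) and -0.12 against duplex 2 alone (adjusted p = 0.677).

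The control duplexes themselves were also compared, a comparison planned for all tested genes. IDH1 was lower with control duplex 2 than with duplex 1 by a log2 difference of -0.42 (SE 0.118, 95% interval -0.69 to -0.15), which did not pass after adjustment (adjusted p = 0.429, edgeR). It was the only one of the 9 below an unadjusted p of 0.05. In that fit 0 of 17811 genes, 0%, were called between control duplexes by edgeR, while 1293 had an unadjusted p under 0.05 and DESeq2 called 70. In an edgeR fit of the 4 control libraries alone 566 genes were called, IDH1 among them (adjusted p = 0.00986).

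IDH2 (chromosome 15, 90626277 to 90645709, minus strand) encodes the mitochondrial NADP-dependent enzyme. Its level was 19.9, 55.9 and 10.1 CPM with NFE2L2 duplexes 1, 2 and 3, against 46.4, 42.0, 39.5 and 43.0 CPM with control siRNA and 35.5 CPM in the mock library. Duplexes 1 and 3 were far below the controls and duplex 2 was above them. The log2 fold change of -0.58 had a wide interval (SE 0.441, -1.56 to 0.41, adjusted p = 0.455, edgeR). Without duplex 2 it was -1.53 (adjusted p = 0.00438), so that whether IDH2 is called depends on 1 library. The log2 ratio of IDH1 to IDH2 ran from 3.04 to 5.51 with NFE2L2 siRNA, around the 3.49 to 3.90 of the controls (exact permutation p = 0.457). The subunits of the NAD-dependent mitochondrial enzyme had log2 fold changes of -0.11 for IDH3A (adjusted p = 0.470), -0.26 for IDH3B (0.210) and -0.13 for IDH3G (0.486, edgeR), none past the test.

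**Figure D3:**
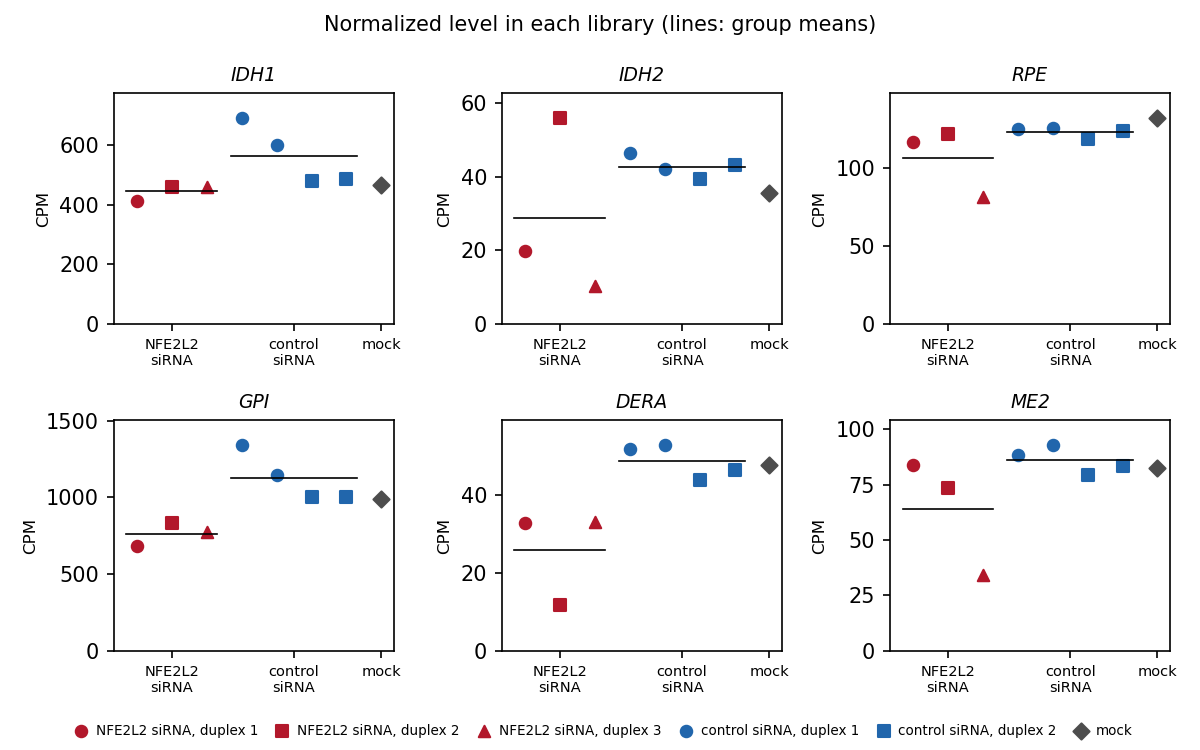
Normalized level (CPM, axes from 0) in each of the 8 libraries for IDH1, IDH2, RPE and the related enzymes GPI, DERA and ME2, with black lines at the NFE2L2 siRNA and control siRNA means. IDH1 and GPI were higher with control duplex 1 (blue circles) than with duplex 2 (blue squares), IDH2 was above the controls only with NFE2L2 duplex 2, and RPE and ME2 were lowest with duplex 3.

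Per kilobase of the Ensembl canonical transcript, the control libraries ordered the enzymes from TKT, at 615 ± 41.1 CPM per kilobase (SD, n = 4), and PGD, at 421 ± 25.1, through IDH1 (243 ± 43.7) and TALDO1 (234 ± 11.8) to ME1 (54.7), RPE (38.8), PGLS (30.5), IDH2 (16.1) and RPIA (7.96). IDH1 and TALDO1 overlapped in that order and all other neighbours were separated in these 4 libraries. With NFE2L2 siRNA TKT remained highest at 267 ± 43.1 CPM per kilobase (SD, n = 3), IDH1 followed at 192 ± 11.9 and PGD at 170 ± 18.0, with TALDO1 at 80.7, PGLS at 34.2, RPE at 33.5, ME1 at 23.1, IDH2 at 10.8 and RPIA at 8.74. In the silenced group the neighbours TKT and IDH1, PGD and TALDO1, and TALDO1 and PGLS were separated, and all others overlapped. The length matters for the order. Over the union of all annotated exons PGD (286) came before TKT (194) in the controls, and IDH2 (15.3) before PGLS (10.8). With NFE2L2 siRNA the means over exon unions began with PGD (116), IDH1 (94.6) and TKT (84.1), so that TKT was highest only by canonical transcript.

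**Figure D4:**
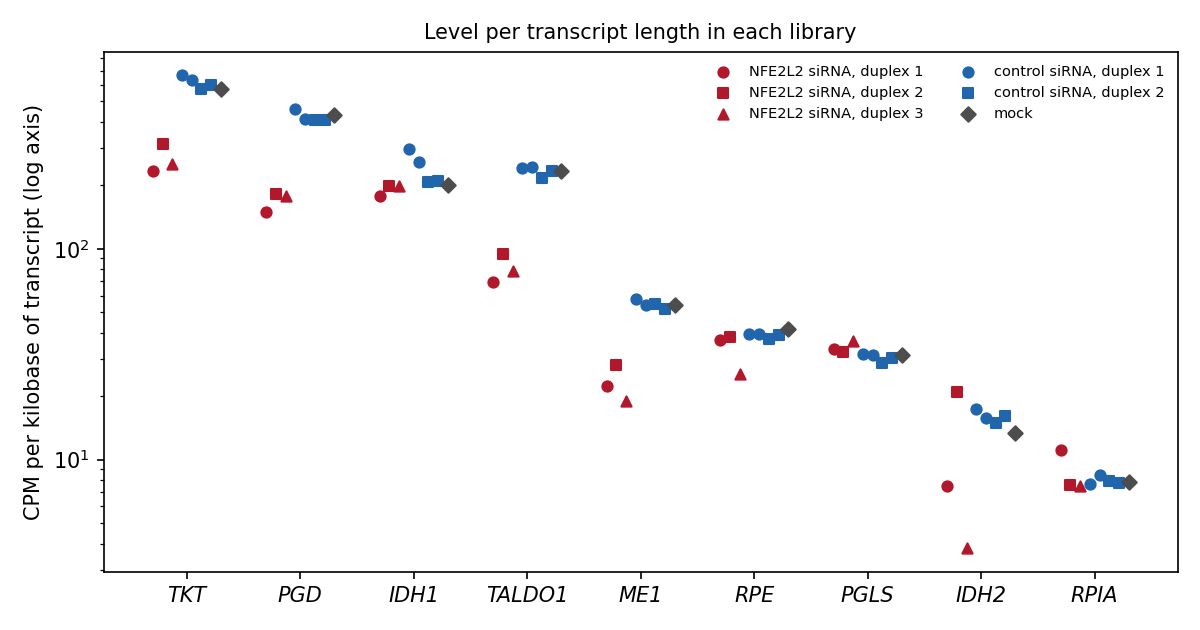
CPM per kilobase of canonical transcript (logarithmic vertical axis) of the 9 enzymes in each library, ordered by the control siRNA mean, with colours for group and marker shapes for duplex. TKT and PGD were the most abundant in the controls at 615 and 421, and RPIA was lowest at 7.96.

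The 4 reduced enzymes varied together over the 8 libraries. Pearson's r of log2 CPM was 0.995 for TKT with TALDO1 and for PGD with TALDO1, and 0.971 for PGD with ME1. The points share the step between groups, so these values are descriptions over 8 libraries. Genes most like PGD were NQO1 (r = 0.996), ALDH3A1 (0.996) and NLN (0.995). Those most like TKT were PIR (0.998), MGST1 and TRIM16 (both 0.997), and those most like TALDO1 were NQO1 (0.999), MGST1 and TREX1 (both 0.998). ME1 was most like DGKG (0.996), ABCB6 and RAB10 (both 0.995).

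Further enzymes of sugar phosphate metabolism were read for comparison. Of 16 listed, 13 were tested and none was called, with a median log2 fold change of -0.20. In 4 of the 13 every silenced library lay below every control, against 11.4% of all tested genes. TKTL1, TKTL2 and FBP1 had too few reads. DERA, which cleaves deoxyribose phosphate, was lowest at -0.91 (adjusted p = 0.0893, edgeR), with 32.9, 11.8 and 33.1 CPM against 43.9 to 53.0 in the controls. Duplex 2 stood far below the other two, and without it the log2 fold change was -0.58 with an adjusted p of 0.00950. PGM1, a phosphoglucomutase, was highest at 0.17 (adjusted p = 0.523). DESeq2 called 1 of this list, GPI, the glycolytic isomerase of glucose 6-phosphate, named after its values were seen. GPI was at 684, 831 and 774 CPM with NFE2L2 siRNA and at 1342, 1149.7, 1003 and 1002 CPM in the controls. Its log2 fold change was -0.56 (adjusted p = 0.0262, edgeR). The mock library, at 987 CPM, was below all controls. Control duplex 2 was lower than duplex 1 by -0.31 (unadjusted p = 0.0445, adjusted p = 0.670, edgeR). The log2 fold change was -0.72 against control duplex 1 alone (adjusted p = 0.0470) and -0.40 against duplex 2 alone (adjusted p = 0.197, edgeR).

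A list of 16 other enzymes that make or use NADP(H) or related cofactors in central metabolism was tested in full. None was called, and the median log2 fold change was -0.09. Every silenced library lay below every control in 3 of the 16 and above in 1, against 11.4% and 11.9% of all tested genes. The lowest was ALDH1L1, a folate dehydrogenase, at -1.62 (adjusted p = 0.0545, edgeR) on 2 to 21 reads per library. The highest was GLUD2, at 0.20 (adjusted p = 0.270), an intronless copy of GLUD1 for which the assignment of reads is uncertain. MTHFD2, a mitochondrial folate enzyme that DESeq2 called and that was also named after its values were seen, was at 169, 170.5 and 144 CPM against 201 to 273 CPM in the controls, a log2 fold change of -0.54 (adjusted p = 0.0239, edgeR).

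The mock library had no replicate and was not tested. It lay within the range of the control libraries for PGLS, PGD, RPIA, TKT, TALDO1 and ME1, above it for RPE and below it for IDH1 and IDH2. Thus for the 4 reduced enzymes the library without siRNA was at the control level. For both IDH1 and IDH2 it differed from the control mean by -0.26 on the log2 scale.

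**Figure D5:**
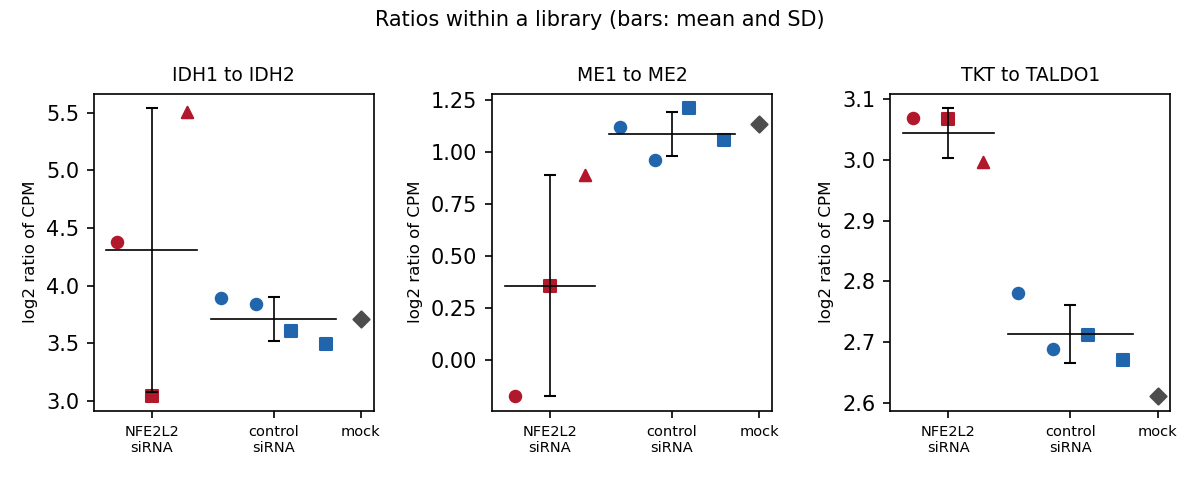
Log2 ratio of CPM within each library for IDH1 to IDH2, ME1 to ME2 and TKT to TALDO1 (vertical axes, not from 0), with the group mean and SD as black lines; symbols and colours mark the same groups and duplexes as in the plot of levels by library. TKT to TALDO1 was about 3.04 with NFE2L2 siRNA and 2.71 with control siRNA, with little spread in either group, while IDH1 to IDH2 spread over both sides of the controls.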

How the data were processed

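Strand-specific total RNA libraries (ribosomal RNA depleted) came from 8 transfections, and groups were taken from the sample labels. Reads were aligned by the authors with HISAT 0.1.6 to hg19, and they deposited raw counts per GENCODE v19 gene from HTSeq 0.6.0 (reverse-stranded setting), with no normalization. The classes of unassigned reads, 34.4% to 39.7% of all entries, were left out. Symbols, lengths and positions were taken from GENCODE v44 on GRCh37, which matched 55538 of 60291 identifiers.

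The count test was edgeR 4.0.16 under R 4.3.3 (TMM, glmQLFit, glmQLFTest, prior count 0.125), run on the 7 libraries without mock, for genes with at least 10 reads in 1 of them, adjusted by Benjamini-Hochberg across every tested gene, at a threshold of 0.01. The study used DESeq2, an alternative here (1.42.0), with limma-voom (3.58.1), other normalizations, filters and control sets. The fit was checked on simulated data. Those counts had the same dispersion for all genes and no duplex differences within a compared group, so the check does not cover the duplex structure of these libraries. P-values measure the spread between these transfections, which in the NFE2L2 siRNA group cannot be told apart from that between duplexes. In the controls they mix the spread between repeats of a duplex with that between duplexes. The 4 control libraries were taken as separate, although each control duplex gave 2 of them. Libraries of a group differed beyond counting noise (chi-square per degree of freedom 12.6 to 78.1). Control pairs of the same duplex were at 12.6 and 14.2, and control pairs of different duplexes at 24.3 to 47.6. Pairs of NFE2L2 siRNA libraries, all of different duplexes, were at 69.1 to 78.1. The test pools these unlike spreads. Levels are CPM after TMM scaling over the 8 libraries. All 9 members were named, with every called gene of 2 context lists, the lowest and highest tested gene of each, paralogs of ME1, IDH1 and IDH2, and, for each reduced member, the 3 most correlated genes with a mean of at least 50 reads. Members and lists were chosen with earlier results of these data known. Single values had exact two-sided permutation tests over 35 divisions of the libraries, which cannot go below p = 0.0571. Of 18 cell type markers, 17 were found.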

Additional observations from a re-analysis of the deposited data

Results flagged for a closer look

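Among 21 groups of 4 control values that were examined, 1 held a library far from the other 3, where chance gives about 1.05. PGD was at 1039.3 CPM in control library 1, and its gap to the next library was 0.927 of the whole range of the 4 controls. Leaving out 1 library at a time kept the log2 fold change of PGD between -1.37 and -1.22.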

How the results depend on the processing

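PGD and TALDO1 passed the threshold in all 18 alternatives, TKT in 16 and ME1 in 15. TKT had an adjusted p of 0.0184 against control duplex 2 alone and 0.0138 with both libraries of a control duplex summed, and ME1 had 0.0145 and 0.0223 against duplexes 1 and 2 alone and 0.0182 with sums. NFE2L2 itself had 0.0229, 0.0259 and 0.0235 in these 3 settings. In these settings control libraries were left out or summed by duplex, and the cause of the higher p-values was not tested. Of the 9 members, 2 were called against control duplex 2 alone and 2 with sums, and 4 to 5 with a library left out. The members' median log2 fold change was -0.37, -1.36 and -0.37 without NFE2L2 replicates 1, 2 and 3, and -0.94 with limma-voom.

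Over all genes 491 were called. The count was 1314 with DESeq2, 1019 with a filter of 1 read, 1456 at a threshold of 0.05, 120 and 59 against control duplexes 1 and 2 alone, 78 with duplexes summed, 772 with the mock library added to the controls, and 163 to 915 with a library left out. It moved by over 1.5 times without any 1 library other than NFE2L2 replicate 1, and was highest without NFE2L2 replicate 2. GPI and MTHFD2 were called with DESeq2, the filter of 1 read and the threshold of 0.05, MTHFD2 also with the mock library added (adjusted p = 0.00875), and DERA with the filter of 1 read (adjusted p = 0.00853, edgeR). The reduced share was 49.5% as reported, 80% and 89.8% against control duplexes 1 and 2 alone, 96.2% with duplexes summed, 41.6% with the mock library added, 43.3% at the threshold of 0.05, and 48.7% to 78.5% with a library left out. The cause was not tested. Between control duplexes DESeq2 called 70 genes, a filter of 1 read 8, a threshold of 0.05 10 and the control libraries alone 566, with 1 member, IDH1.

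Signs turned for RPIA with a library left out (-0.078 to 0.23), for ME3 against control duplex 2 alone (-0.066) and with a library left out (-0.15 to 0.13), and for the IDH1 to IDH2 log2 ratio with a library left out (-0.00020 to 1.23). The level per kilobase over all exons was an alternative chosen after seeing the data. The looser core TGANNNNGC lay in windows of 5 of the 9 members, beside 47.1% of all genes with it in at least 1 window. It lay in 41.8% of all windows. No paired analysis was possible because replicate numbers are duplex numbers in the NFE2L2 siRNA group and mark repeats of a duplex in the control group. Each member had at least 430 reads in every library.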

Other observations

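The 3 NFE2L2 duplexes, with 1 library each, did not give the same order of levels for all of these enzymes. Duplex 2 left the most NFE2L2 RNA, at 52.0 CPM, and gave the highest of the 3 levels for PGD (414 CPM), TKT (944 CPM), TALDO1 (113 CPM) and ME1 (93.9 CPM). It also gave the highest level of IDH2, at 55.9 CPM, and the lowest of PGLS and DERA, at 32.7 and 11.8 CPM. Duplex 3 left the least NFE2L2 RNA, at 29.7 CPM, and the lowest levels of ME1, IDH2, RPE and ME2, whereas PGD, TKT and TALDO1 were lowest with duplex 1. With 1 library per duplex these orders were not tested.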
